A study of Mus musculus with 9 samples.

Results

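Tenocyte-lineage cells were chosen by the UMI counts of marker genes among knee joint cells, for the tendon markers *Tnmd*, *Mkx* and *Kera*. The rule was met by 148 of the 4788 cells kept. A cell was a member when unique molecular identifiers (UMIs, each standing for 1 captured RNA molecule) of at least 2 of these 3 genes were counted in it. It also had to hold UMIs of fewer than 3 of the cartilage genes *Cytl1*, *Snorc*, *Chad*, *Hapln1*, *Matn3* and *Col9a2*, and none of *Dpp4* (universal fibroblasts), *Ptprc* (immune cells) or *Pecam1* (endothelium). These values chose the cells and are given below as a description only.

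Tenocytes are the fibroblasts of tendon and ligament, laid in rows between parallel type I collagen fibrils that they build and maintain. The basic helix-loop-helix factor scleraxis (*Scx*) and the homeobox factor Mohawk (*Mkx*) drive the tendon programme in development. Tenomodulin (*Tnmd*) is a membrane glycoprotein of mature tenocytes, and keratocan (*Kera*) is a small leucine-rich proteoglycan that binds collagen fibrils. The knee is rich in such tissue, in the patellar tendon, the ligaments and the places where they insert into bone.

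The cells came from knees of *Gdf5-Cre;Tom;Pdgfrα-H2BGFP* mice aged 11 to 12 weeks, in which Cre driven by *Gdf5*, a gene of the embryonic joint interzone, switches on tdTomato for life, and *Pdgfrα* drives nuclear green fluorescent protein (GFP) in fibroblasts. Digested cells were sorted into Tom+ cells, of *Gdf5* lineage, and Tom-GFP+ cells, which are *Pdgfrα*-expressing cells without tdTomato, and run on the 5' droplet assay of 10x Genomics. The steady state held 2 Tom+ libraries and 1 Tom-GFP+ library. The injured state, taken 6 days after a medial parapatellar arthrotomy with a full-thickness scratch of the trochlear cartilage of the right knee, held 4 Tom+ and 2 Tom-GFP+ libraries. By the study's figure legends, steady-state mice were 11 and injured mice 12 weeks old, so age went with state. All groups shared the 3 transgenes. The sort limits what the libraries can show, because tenocytes low in *Pdgfrα* and outside the *Gdf5* lineage were not collected, and no sham operation was among the groups. The libraries held 2866464 and 4751957 UMIs (Tom+ steady state), 3338556 (Tom-GFP+ steady state), 15033902, 11063217, 7828550 and 7956682 (Tom+ injured), and 7397694 and 4262658 (Tom-GFP+ injured), so the injured libraries were sequenced more deeply than most of those in the steady state.

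Most members were called by tenomodulin with keratocan. *Tnmd* and *Kera* alone were paired in 87 cells, *Mkx* and *Kera* in 23, *Tnmd* and *Mkx* in 12, and all 3 markers were found in 26. *Tnmd* (ENSMUSG00000031250, GRCm38 chromosome X, 133850980 to 133865577) had UMIs in 84.5% of members and in 3.98% of the other stromal cells, which are kept cells without *Ptprc* or *Pecam1* UMIs. *Kera* (ENSMUSG00000019932, chromosome 10, 97606879 to 97613692) had UMIs in 91.9% of members and 8.92% of other stromal cells. *Mkx* was found in 41.2% and 2.06%. In the 73 immune cells, which should lack all 3, each was found in 1.37% of cells, at a median of 8462 UMIs per cell against 13237 in members. A pair of UMIs was thus enough to enter, and 597 further cells held exactly 1 marker (*Kera* in 357, *Tnmd* in 158, *Mkx* in 82).

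**Figure D1:**
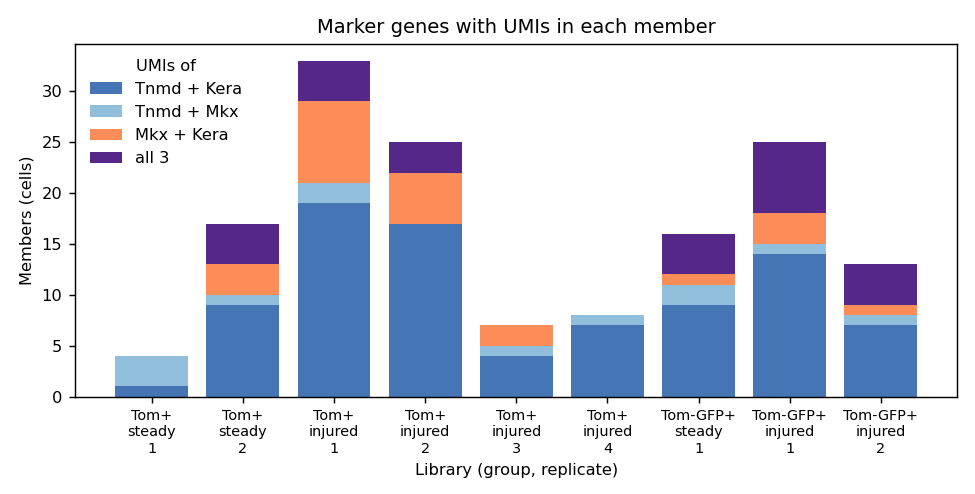
Number of tenocyte-lineage cells in each of the 9 libraries (x axis, by group and replicate), stacked by the marker genes with UMIs in the cell (y axis, cells). *Tnmd* with *Kera* is the most frequent pair in 8 libraries, and the bars run from 4 cells in Tom+ steady-state replicate 1 to 33 in Tom+ injured replicate 1.

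Cells on either side of the rule differed in tendon genes that the rule did not use. Summed over cells with 0, 1, 2 and 3 markers, *Fmod*, which encodes the fibril-binding proteoglycan fibromodulin, stood at 150, 398, 1384 and 4204 UMIs per 1000000 UMIs of the summed cells (CPM). *Thbs4*, for the matricellular protein thrombospondin 4 of tendon, stood at 123, 512, 1919 and 3512 CPM. *Scx* stood at 25.1, 80.1, 115 and 109 CPM, so it was as high with 2 markers as with 3. The universal fibroblast gene *Pi16* ran the other way, at 184, 24.2, 21.9 and 5.33 CPM. These are sums over cells of all libraries and were not tested. They mix the number of markers with the state, since 8 of the 26 cells with 3 markers and 95 of the 597 with 1 came from the steady state, where members held more *Fmod* in 2 of 3 libraries.

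The label was checked against other cell types. Of the markers of immune cells, 4 of 6 were detected in members with 32 UMIs in all of 2244566, and *Tyrobp* was at 0, as was *Ptprc* by the rule. Endothelial markers gave 8 UMIs, all of *Egfl7*, with *Pecam1* at 0 by the rule. Skeletal muscle markers gave 7 UMIs with *Acta1* and *Ckm* at 0, adipocyte markers 3 UMIs with *Adipoq* at 0, and Schwann and red blood cell markers none. Of the cartilage genes in the rule, *Snorc* and *Col9a2* were at 0 and *Chad* made up most of the signal, at 830 CPM. It stood at 1170 and 4911 CPM in Tom+ and 4349 in Tom-GFP+ steady-state members, at 173, 0, 538 and 0 in Tom+ injured and at 328 and 463 in Tom-GFP+ injured members, so each injured library lay below the 3 of the steady state. The rule used this gene, and its levels were not tested.

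Mural cell markers were an exception, and bone genes, given further below, were another in single cells. All 5 were detected, with 1811 UMIs in all, and *Acta2*, for smooth muscle actin, was the most abundant at 502 CPM. By library, the 5 markers together reached 14237 and 4350 CPM in the Tom+ steady state, 40.0 in the Tom-GFP+ steady state, 312, 93.4, 78.7 and 127 in Tom+ injured, and 537 and 47.9 in Tom-GFP+ injured members. Of the 1811 UMIs, most came from 2 cells, 1 in each Tom+ steady-state library, which held 16 and 38 UMIs of *Myh11*, the smooth muscle myosin, and 383 and 411 of *Acta2*. Both entered with 2 *Tnmd* UMIs, 1 *Mkx* UMI and no *Kera* UMI, and so go against the tenocyte label. No other member held *Myh11* UMIs. Among the genes named for injury, *Mylk*, *Mustn1* and *Sparcl1* were not called in Tom+ members without these 2 cells, and *Mylk*, *Col6a1*, *Col14a1*, *Sparc* and *Serpinh1* were not called over both lineages.

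No member was counted in more than 1 library, and 12 of 4776 kept barcodes occurred in more than 1 library, 1 of them a member's.

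Members made up 1.22% to 5.10% of the stromal cells of a library. The share was 1.22% (exact Clopper-Pearson 95% interval 0.334 to 3.10, which covers counting error alone) and 3.15% (1.84 to 4.99) in the Tom+ steady state and 3.95% (2.27 to 6.34) in the Tom-GFP+ steady state. It was 4.39% (3.04 to 6.12), 3.07% (2.00 to 4.50), 1.46% (0.590 to 2.99) and 1.35% (0.583 to 2.64) in Tom+ injured libraries, and 5.10% (3.33 to 7.44) and 4.87% (2.62 to 8.18) in Tom-GFP+ injured libraries. The Tom+ groups overlapped in part, whereas both Tom-GFP+ injured libraries lay above all Tom+ libraries.

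The share among Tom+ cells was compared before and after injury, in a design that allows no p under 0.05. It averaged 2.57% ± 1.45 (SD, n = 4) after injury and 2.19% ± 1.36 (n = 2) before, and the difference of 0.383 points did not pass a two-sided exact permutation test (p = 0.733, where 0.0667 is the smallest the design allows). With every cell thinned to 5000 UMIs, which left out 460 shallower kept cells, the difference turned to -0.571 points. Among injured libraries the share was 4.99% ± 0.165 (n = 2) in Tom-GFP+ and 2.57% ± 1.45 (n = 4) in Tom+ cells (exact permutation p = 0.133). After thinning it was 4.11% ± 0.759 and 1.32% ± 0.558, without overlap, at the smallest p possible (exact p = 0.0667). The lineages were sorted by different gates, so their shares describe the sorted cells and not the tissue.

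**Figure D2:**
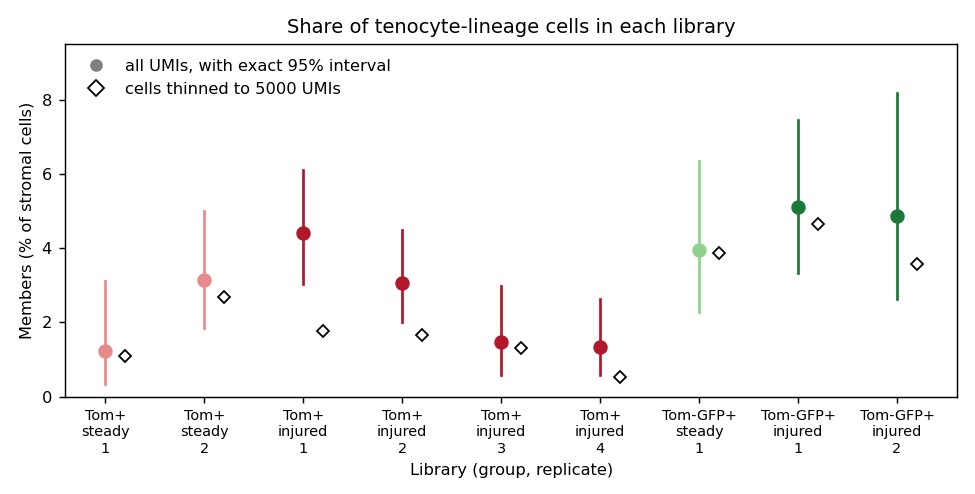
Tenocyte-lineage cells as a percentage of stromal cells (y axis) in each library (x axis); filled points use all UMIs with exact 95% intervals and open diamonds use cells thinned to 5000 UMIs. The Tom-GFP+ injured libraries lie highest at 5.10% and 4.87%, and thinning lowers Tom+ injured replicate 1 from 4.39% to 1.77%.

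The tdTomato transcript followed the sort in members. It stood at 191 and 274 CPM in Tom+ steady-state members, at 346, 473, 984 and 286 CPM in Tom+ injured members, and at 6.67, 11.5 and 5.33 CPM in the Tom-GFP+ libraries. The H2B-GFP transcript was found in 81.1% of members and in 91.8% of immune cells, so its share in members is not above the background. *Thy1* and *Cd34*, used for sublining fibroblasts, were found in 68.9% and 56.1% of members, well above the 4.11% and 2.74% of immune cells, so members share both genes with the sublining. The closest comparison was therefore with the 1904 *Thy1*+*Cd34*+ fibroblasts that were not members, summed within the same library and tested by edgeR's quasi-likelihood test with the library as a block. Tom+ steady-state replicate 1 had fewer than 5 members and was left out, which gave 8 pairs. Of 10728 genes tested, 211 (1.97%) were higher in members and 368 (3.43%) were lower, at an edgeR false discovery rate (FDR) of 0.05. Genes of the rule, *Thy1* and *Cd34* were not taken out of these counts, although the choice of cells sets their differences. DESeq2 called 245 higher and 231 lower, and edgeR with size factors by relative log expression called 247 and 302. A gene was higher in each of the 8 pairs for 1.17% of those tested and lower in each for 4.12%.

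Tendon genes outside the rule were higher in members than in fibroblasts of the same library, among them the transcription factor scleraxis. *Scx* (ENSMUSG00000034161, chromosome 15, 76457452 to 76459458) stood at 45.7 CPM in members of Tom+ steady-state replicate 2 and 86.7 in those of the Tom-GFP+ steady state, at 228, 67.9, 65.6 and 63.5 CPM in Tom+ injured members, and at 74.8 and 74.6 CPM in Tom-GFP+ injured members. In fibroblasts of the same libraries it was 5.38, 1.4, 98.1, 30.8, 15.8, 12.5, 5.37 and 5.07 CPM. Members were higher in 8 of 8 pairs, although the fibroblasts of Tom+ injured replicate 1 exceeded the members of 7 other libraries. The means were 88.4 ± 57.7 and 21.8 ± 32.2 CPM (SD, n = 8), a log2 fold change of 2.41 ± 0.36 (SE; edgeR adjusted p = 0.000167). Restricted to the 3 libraries with at least 20 members, where fewer libraries enter, 103 genes in all were called, and among those lost were *Scx*, *Comp*, *Piezo2*, *Itga10*, *Tgfb3*, *Tgfbr2*, *Klf4*, *Egr1*, *Mfap5*, *Mdk*, *Fn1*, *Mmp13*, *Alpl*, *Acan* and *Efemp1*. *Scx* was the only gene to rise of the 12 tendon regulators tested, and 3 fell. These were *Tgfbr2*, the type II TGF-β receptor (log2 fold change -0.90), *Klf4* (-0.81) and the mechanically induced factor *Egr1* (-1.03), whose call was lost with DESeq2, with size factors by relative log expression and without any 1 of 3 libraries (the Tom-GFP+ steady-state one, Tom+ injured replicate 3 and Tom-GFP+ injured replicate 2).

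Scleraxis binds E-boxes, of the form CANNTG. Promoters of *Fmod* and *Thbs4*, matrix genes higher in members, are shown to place these letters, from 250 bases before to 50 after the RefSeq transcription start (GRCm38.p6), with every E-box in capitals.
Fmod (chr1:134037004-134037303, plus strand): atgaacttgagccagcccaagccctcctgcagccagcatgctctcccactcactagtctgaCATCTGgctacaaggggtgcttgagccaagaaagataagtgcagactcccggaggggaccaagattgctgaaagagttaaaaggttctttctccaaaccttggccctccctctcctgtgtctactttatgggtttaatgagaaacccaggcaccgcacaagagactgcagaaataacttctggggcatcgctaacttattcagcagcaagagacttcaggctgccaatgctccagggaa
Thbs4 (chr13:92794769-92795068, minus strand): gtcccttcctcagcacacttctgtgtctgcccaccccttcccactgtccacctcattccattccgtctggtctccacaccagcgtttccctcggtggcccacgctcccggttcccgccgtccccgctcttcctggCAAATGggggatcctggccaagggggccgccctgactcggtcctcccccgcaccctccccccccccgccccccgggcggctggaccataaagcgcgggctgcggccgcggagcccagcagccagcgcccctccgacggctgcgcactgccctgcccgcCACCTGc
The *Fmod* window held 1 E-box and the *Thbs4* window 2, searched on both strands, where the form reads alike. An E-box is common: 72.3% of 32851 RefSeq promoters of this length held at least 1, and 17.2% held CAGATG or CATCTG, of which the *Fmod* window has the second. The *Cilp2* window held 1 and those of *Tnmd* and *Kera* none. A match describes the letters and is not a binding site.

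Tendon matrix proteins had the most called genes of the lists tested. Of 22, 14 rose and 2 fell, with a median log2 fold change of 1.16 against -0.09 over all genes. *Fmod* (ENSMUSG00000041559, chromosome 1, 134037254 to 134048277) had 6366, 9526, 1102, 1362, 459, 707, 528 and 841 CPM in members, in the library order used for *Scx*, and 203, 23.4, 107, 122, 33.4, 55.1, 5.85 and 40.0 CPM in fibroblasts. Every member value lay above every fibroblast value, with a log2 fold change of 4.62 ± 0.44 (edgeR adjusted p = 1.03e-06). *Thbs4* (ENSMUSG00000021702, chromosome 13, 92751590 to 92794818) had 2759, 4796, 1738, 965, 5810, 270, 1756 and 4489 CPM in members and 168, 36.0, 395, 227, 139, 107, 80.7 and 355 in fibroblasts. It was higher in 8 of 8 pairs (log2 3.69 ± 0.45, edgeR adjusted p = 2.08e-05), and the members of Tom+ injured replicate 4, at 270 CPM, lay within the fibroblast range.

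Further matrix genes were higher in members, though not each of them in all 8 pairs. The mean of *Cilp2*, which encodes a cartilage intermediate layer protein, was 146 ± 158 CPM in members and 3.75 ± 6.85 in fibroblasts (log2 5.40 ± 0.41, edgeR adjusted p = 4.30e-08). *Comp*, for cartilage oligomeric matrix protein, another thrombospondin of tendon, rose by 2.01 on the log2 scale, *Clec11a* by 1.57, and the collagen-binding *Cpxm2* by 2.54. *Wif1*, a secreted Wnt inhibitor, averaged 93.3 ± 125 and 9.76 ± 18.5 CPM (log2 3.53), higher in 7 of 8 pairs, and *Angptl7* was higher in 6 of 8 (log2 4.40). Decorin (*Dcn*), an abundant proteoglycan of all these cells, did not pass the test (log2 0.62, edgeR adjusted p = 0.103). The 2 that fell were the microfibril genes *Fbn1* (log2 -1.67) and *Mfap5* (-1.70).

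Among 12 fibrillar and associated collagens, 4 rose and 1 fell. *Col11a1*, the chain of type XI collagen that nucleates fibrils, had 58.7, 160, 290, 170, 13.1, 452, 167 and 250 CPM in members and 9.29, 7.96, 31.8, 7.46, 2.08, 39.8, 10.0 and 19.3 in fibroblasts (log2 3.65 ± 0.20, edgeR adjusted p = 2.48e-10). Members were higher in each pair, and the 13.1 CPM of Tom+ injured replicate 3 is 1 UMI. *Col12a1*, for a collagen on the fibril surface, rose by 1.77. *Col1a1*, the main chain of tendon collagen, rose by only 0.89 ± 0.11 on the log2 scale, from 6744 ± 3342 to 12826 ± 7086 CPM, in 8 of 8 pairs.

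Genes of force sensing and cell signals were also raised singly. *Piezo2*, a stretch-gated ion channel known from touch neurons, averaged 87.3 ± 32.2 CPM in members and 14.8 ± 8.76 in fibroblasts (log2 2.50 ± 0.35, edgeR adjusted p = 7.76e-05). Its UMIs were found in 46.6% of members, 13.3% of the fibroblasts and 0 of 73 immune cells, which allows a share of cells with a UMI of up to 4.11%. With the collagen-binding integrin *Itga10* (log2 2.12, higher in 6 of 8 pairs, a call lost without any 1 of Tom+ injured replicates 1, 2 and 3), it was 1 of 2 genes that rose among 10 collagen receptors and mechanosensing genes. The *Itga10* call was also lost after thinning and with *Tnmd* required. Among TGF-β and BMP pathway genes, *Tgfb3* (log2 1.16) and *Ltbp3* rose and *Ltbp4* fell. The genes with the largest rise outside the lists were *Egfl6* (log2 3.54), *Fibin* and *Crispld1* (2.88 each), *1500015O10Rik* (2.81) and *Col8a2* (2.64).

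Sublining and universal fibroblast genes were lower in members. Of 12 sublining genes, 9 fell and none rose, with a median log2 fold change of -1.29. Since *Dpp4* was barred by the rule, a low level of genes found with it was partly set by the choice of cells. The fibroblasts were in turn chosen for *Thy1* and *Cd34* UMIs, which members did not need. Differences in genes found with *Thy1* and *Cd34* were thus partly set as well. *Pi16* stood at 71.7, 40.0, 3.15, 19.8, 0, 39.7, 0 and 63.9 CPM in members and at 1203, 1894, 53.2, 392, 351, 657, 594 and 683 CPM in fibroblasts (log2 -4.75 ± 0.32, edgeR adjusted p = 7.27e-09). Members were below fibroblasts in 8 of 8 pairs. *Cd248*, which encodes endosialin, had a log2 fold change of -2.57 and *Cd55* of -2.50. The Wnt antagonist *Sfrp4* fell by 3.24, from 2146 to 310 CPM, and *Efemp1* by 3.66. The chemokine gene *Ccl11*, with 1 UMI over all members, averaged 0.240 CPM in members and 143 in fibroblasts.

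**Figure D3:**
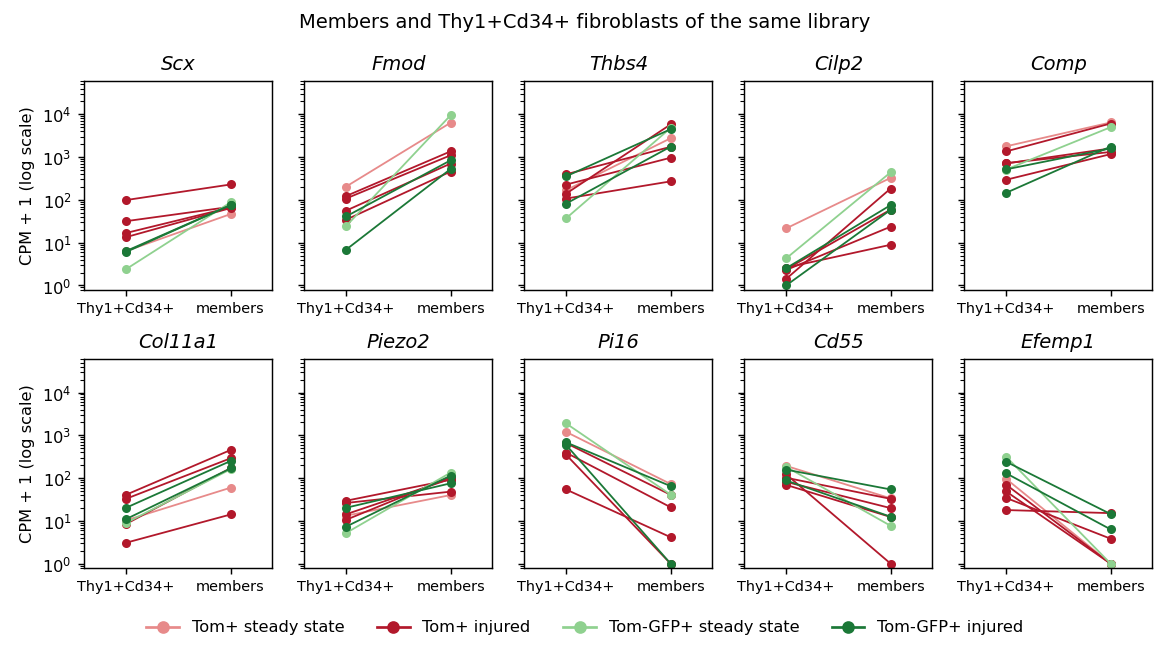
CPM + 1 on a log scale (y axis) of single genes in *Thy1*+*Cd34*+ fibroblasts and in tenocyte-lineage cells (x axis); each line joins the 2 values of 1 library, coloured by group. *Fmod*, *Thbs4* and *Scx* rise in each of the 8 tested pairs and *Pi16* falls in each.

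Other lists were set beside the 1.97% of all genes that were higher and the 3.43% that were lower against fibroblasts. Of 15 cell cycle genes, 0 passed by edgeR or by DESeq2 and 1 had an unadjusted p under 0.05, with a median log2 fold change of -0.52. Of 14 glycolysis and hypoxia genes, 0 passed by either tool and 4 had an unadjusted p under 0.05, and of 16 secretory pathway genes, 0 passed by either tool and 0 at the unadjusted level. *Mki67*, the proliferation marker, had UMIs in 8 members (5.41%). Of 22 collagen processing enzymes, *Plod1* and *Plod2* rose and *Bmp1*, *Loxl1* and *Loxl2* fell, with a median of 0.01. Of 17 wound and activation genes 5 rose, among them *Mdk*, for the growth factor midkine (log2 1.34), and *Fn1*, for fibronectin, fell (-0.92). Of 13 immediate early and heat shock genes *Dnajb1* fell, where DESeq2 called 0, and of 12 proteases *Mmp13* rose, a call lost with DESeq2, with *Tnmd* required and without Tom+ injured replicate 2, while *Adamts5* and *Adamts15* fell. Of 8 osteoblast genes *Sp7*, *Alpl* and *Ibsp* rose and *Phex* fell (*Sp7* not without Tom+ injured replicate 3, *Alpl* not after thinning or with *Tnmd* required), of 7 chondrocyte genes outside the rule *Acan* rose and *Sox5* fell, and of 7 lining genes *Clic5*, *Has1* and *Cd44* fell.

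Against all other stromal cells, 230 of 12226 genes (1.88%) were higher in members and 538 (4.4%) were lower, in 8 pairs, with the genes of the rule again counted. With DESeq2 the counts were 245 higher and 275 lower, and with size factors by relative log expression 284 and 414. This comparison holds many of the cells above and is not independent of the last. Lining genes were lower throughout, since 8 of 8 fell, with a median log2 fold change of -3.21 against -0.10 over all genes. *Clic5*, a chloride channel gene of lining synoviocytes, averaged 1.84 ± 4.59 CPM in members and 129 ± 97.7 in the others (log2 -6.72 ± 0.39, edgeR adjusted p = 1.22e-11). *Prg4*, which encodes the lubricant lubricin, averaged 1140 ± 534 and 8793 ± 6320 CPM (log2 -2.67), lower in 7 of 8 pairs. It was found in 46.6% of immune cells as well, so free RNA and expression cannot be told apart in its 78.4% of members.

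Cartilage and bone genes were lower too. *Col2a1*, the main cartilage collagen, averaged 10.2 ± 12.8 CPM in members and 441 ± 397 in other stromal cells, and 5 of 9 chondrocyte genes outside the rule and 5 of 9 osteoblast genes fell. *Uts2r*, the urotensin 2 receptor, was higher in members at 71.7 ± 60.3 and 9.96 ± 7.54 CPM (log2 2.71), lists aside. *Car3*, for carbonic anhydrase 3, was listed at 0 in all members.

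Members of 2 libraries differed among themselves in bone genes. In Tom+ injured replicates 1 and 2, the only libraries with at least 5 members with and without *Tnmd* UMIs, 4 of 2968 genes (0.135%) were higher and 4 (0.135%) lower in *Tnmd*-positive members. With 2 pairs the fit has 1 residual degree of freedom. The split is by a gene of the rule, so the groups also differ in the markers they entered by. Genes of the rule, *Tnmd* included, were not taken out of these counts. Cells without *Tnmd*, which entered by *Mkx* with *Kera*, held more of *Ibsp*, for bone sialoprotein, at 786 CPM against 1.04, of the collagenase *Mmp13*, at 1091 against 35.5, and of the osteocalcin genes *Bglap* and *Bglap2*, at 157 and 193 against 0. Few cells carried these UMIs: single cells held 92 *Ibsp* with 142 *Mmp13* UMIs, and 38 *Bglap* with 30 *Mmp13* UMIs. The first entered with 1 *Mkx* and 1 *Kera* UMI and the second with 1 and 6. Their bone genes go against the tenocyte label. *Tnmd*-positive members were higher in *Sfrp2* (197 against 3.27 CPM), *Apod* (251 against 33.0) and *Clec3b* (2220 against 547). The calls of *Ibsp*, *Bglap*, *Bglap2*, *Sfrp2* and *Apod* were lost with DESeq2. In other libraries, cells rich in *Ibsp* or *Mmp13* held *Tnmd* as well: single cells of the steady state had 55 *Ibsp* with 18 *Tnmd* UMIs and 28 with 11, and of Tom-GFP+ injured replicate 2, 39 *Mmp13* with 36 *Tnmd* UMIs and 25 with 29. The osteocalcin genes are near copies, so reads between them are uncertain.

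Injury was compared within each lineage first. Each lineage then has 1 steady-state library of at least 5 members, which is assumed to vary like the libraries of the injured groups. In Tom+ members 7 of 3726 genes (0.188%) fell and 0 rose (0%) at the same FDR. Without adjustment 445 had a p under 0.05. DESeq2 called 28, of which 9 rose, and without Tom+ injured replicate 3 edgeR called 80, of which 23 rose. The 7 were *Angptl7*, *Mylk*, *Penk*, *Gsn*, *Sparcl1*, *Mustn1* and *Plac9b*. With the layout of the gene list, which differs between libraries, as a term, 0 of them were called, and without the *Myh11* cells *Angptl7*, *Penk*, *Gsn* and *Plac9b* were. In Tom-GFP+ members edgeR called 0 genes (0%), while 487 had a p under 0.05 without adjustment and DESeq2 called 26. The injury effects of the lineages were not shown to differ (edgeR interaction, 0 of 3726 genes, 83 with a p under 0.05 before adjustment, 1 by DESeq2). In injured libraries no gene differed between the lineages by edgeR (0 of 3726, 152 unadjusted, 1 by DESeq2), and even tdTomato, at 522 and 8.42 CPM, had an adjusted p of 0.104.

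A single injury effect over both lineages, fitted with lineage as a term over all 9 libraries and added after the data were seen, called 107 of 2914 genes (3.67%) higher and 200 (6.86%) lower. Steady-state libraries were shallower and 3 of 4 libraries with the older layout of the gene list were steady-state ones. Pseudogenes made up 65 of the 200 lower genes and 2.88% of those tested. Pseudogene UMIs were 1.99% to 3.26% of member UMIs in the steady state, 0.982% in Tom+ injured replicate 1, which has the older layout, and 0.462% to 0.635% in the newer layout. With the layout as a term, 2 genes passed in all, and of the 50 genes named for this effect that were called, 1 kept its call, although all 55 named genes kept their direction. The fit treats the 9 libraries as independent, although the study describes the Tom-GFP+ mice as matched to Tom+ ones, and with the replicate number as a block 96 genes were called in place of 307. Without the Tom-GFP+ steady-state library the calls fell to 46, and without Tom+ steady-state replicate 1 or 2 to 144 and 71. Of the genes described below, *Cthrc1*, *Col1a1*, *Col3a1*, *Gsn*, *Penk*, *Timp3*, *Angptl7* and *Adamts5* were called whichever library was left out. The calls of *Acan*, *Adam12*, *Col12a1*, *Timp1*, *Stmn1*, *Plod2*, *Bmp4*, *Gapdh* and *Cxcl12* were lost without any 1 of the 3 steady-state libraries. Those of *Postn*, *Prelp* and *Mmp14* were lost without the Tom-GFP+ one, those of *Cilp* and *Mylk* without Tom+ replicate 2, those of *Fn1*, *Tnn*, *Lrrc15*, *Sox9*, *Col5a1*, *Barx2*, *Fbln1*, *Fmod* and *Cilp2* without either of these, that of *Ogn* without Tom+ replicate 1 or the Tom-GFP+ one, and that of *Ier2* without either Tom+ one. The part of depth and layout in these results beyond this was not tested.

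Collagen and wound genes rose after injury in members. *Col1a1* (ENSMUSG00000001506, chromosome 11, 94936224 to 94953042) stood at 4132, 3157 and 3709 CPM in the 3 steady-state libraries and at 15228, 19068, 12813 and 24148 CPM in Tom+ injured and 11436 and 13052 in Tom-GFP+ injured members. The groups did not overlap, as was true of 8.92% of genes tested in this direction. The means were 15958 ± 4818 (n = 6) and 3666 ± 489 (n = 3) CPM, a log2 fold change of 2.06 ± 0.26 (edgeR adjusted p = 0.00210). Of 12 fibrillar and associated collagens 10 rose and none fell, with a median of 1.51 against 0.05 over all genes. Without Tom+ steady-state replicate 2, 6 of the 8 recomputed (*Col1a2*, *Col5a1*, *Col5a2*, *Col6a1*, *Col12a1* and *Col14a1*) lost their calls, and without Tom+ steady-state replicate 1 or the Tom-GFP+ steady-state library 5 did. *Col3a1*, the collagen of early repair tissue, rose by 1.95, *Col5a1*, which limits fibril width, by 1.88 and *Col12a1* by 1.82. *Col11a1*, so much higher in members than in fibroblasts, did not pass (log2 1.38, edgeR adjusted p = 0.254).

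Of 17 wound and activation genes, 7 rose and 1 fell, with a median of 1.69. *Cthrc1* (ENSMUSG00000054196, chromosome 15, 39076932 to 39087121), a secreted protein of repair fibroblasts, stood at 167, 78.3 and 53.4 CPM before injury and at 4273, 3838, 918, 4493, 2936 and 1603 CPM after. The lowest injured library was Tom+ replicate 3, still above all 3 steady-state ones (log2 5.04 ± 0.59, edgeR adjusted p = 0.00128). *Cthrc1* was called under each alternative run for it, the layout term included. *Postn*, for periostin, went from 47.8, 6.52 and 20.01 CPM, which are 2, 1 and 3 UMIs, to 3488, 2986, 78.7, 3096, 2453 and 3323 CPM (log2 7.07 ± 1.18), and Tom+ injured replicate 3 was again the lowest. *Fn1*, for fibronectin, rose by 1.69, and *Tnn*, for tenascin N, by 5.39. *Lrrc15* and *Adam12* had no UMIs in steady-state members and averaged 109 and 67.0 CPM after injury.

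Of 10 chondrocyte genes outside the rule, only 2, *Sox9* and *Acan*, passed the filter on low counts for injury, and both rose. Both were low in the steady state and passed the filter through the injured libraries. Their count is therefore no result about the list. *Cilp* and *Cilp2*, counted with the tendon matrix proteins, fell, as given below. *Sox9*, the factor of chondrocytes and of cells at tendon insertions, had 0, 6.52 and 0 CPM in the steady state, where 1 UMI was counted in all, and 70.9, 102, 52.5, 238, 67.2 and 95.9 CPM after injury (log2 4.81 ± 0.99, edgeR adjusted p = 0.0154). The call was also lost after thinning. *Acan*, the cartilage proteoglycan aggrecan, rose by 4.97, from 10.2 ± 12.3 to 225 ± 184 CPM. Of the rest, *Mmp14*, a membrane collagenase, rose by 3.56 and *Timp1*, for a metalloproteinase inhibitor, by 3.51, while *Stmn1* and *Barx2* were listed at 0 in the steady state and averaged 85.0 and 66.1 CPM after. Of 21 collagen processing enzymes 3 rose, among them *Plod2*, which acts on collagen in the endoplasmic reticulum, by 1.47.

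Tendon matrix genes did not rise with the collagens. Of 20 tested, 9 fell and none rose, with a median of -1.24. With the replicate number as a block, *Fmod*, *Ogn*, *Cilp*, *Cilp2*, *Cpxm2* and *Wif1* of these 9 lost their calls and *Comp* and *Dcn* were called lower, and among the genes that rose *Fn1*, *Timp1*, *Stmn1*, *Adam12*, *Sparc*, *Gapdh*, *Capn6*, the collagens *Col5a2* and *Col14a1* and all 3 collagen processing genes (*Plod2*, *Serpinh1* and *Bmp1*) lost theirs. Without the Tom-GFP+ steady-state library *Cilp* and *Angptl7* alone of the 9 were called, and *Wif1* was lost with DESeq2 as well. *Prelp*, a leucine-rich proteoglycan, stood at 2221, 2779 and 3616 CPM before and at 611, 569, 1128, 325, 213 and 437 CPM after injury, without overlap, as was true of 9.13% of genes in this direction (log2 -2.54 ± 0.44, edgeR adjusted p = 0.00820). *Cilp*, *Cilp2* and *Fbln1* had log2 fold changes of -2.49, -2.47 and -3.15, and *Ogn* of -1.15. *Fmod* was at 549, 6366 and 9526 CPM before and between 459 and 1362 CPM after, so the groups overlapped through Tom+ steady-state replicate 1 (log2 -2.68 ± 0.63, edgeR adjusted p = 0.0282), and its call was lost under 7 alternatives. *Comp* (-1.33, edgeR adjusted p = 0.102), *Dcn* (-1.47, adjusted p = 0.122) and *Thbs4* (-0.31, adjusted p = 0.818) did not pass, nor did *Scx*, at 52.1 CPM before and 95.8 after (log2 0.70, adjusted p = 0.463). Of 7 tendon regulators tested, 0 passed by edgeR or DESeq2 and 1 had an unadjusted p under 0.05. By DESeq2, 8 tendon matrix genes fell and 1 rose.

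**Figure D4:**
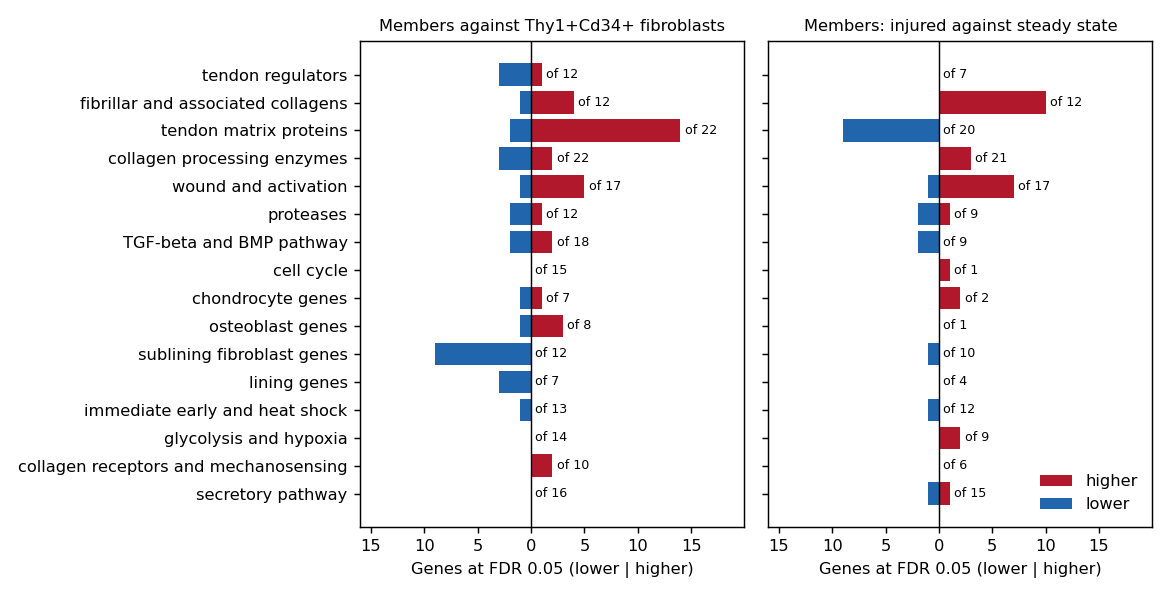
Number of genes of each list called higher (red, right) or lower (blue, left) at an edgeR FDR of 0.05 (x axis), with the number tested beside each bar, for members against fibroblasts and for injury over both lineages. Tendon matrix proteins are 14 higher and 2 lower against fibroblasts and 0 higher and 9 lower with injury, where 10 of 12 collagens are higher.

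Other genes fell further. *Gsn* (ENSMUSG00000026879, chromosome 2, 35256380 to 35307892), for the actin-severing gelsolin, stood at 3392, 12295 and 8639 CPM before and at 368, 569, 826, 238, 793 and 884 CPM after injury, without overlap (log2 -3.82 ± 0.44, edgeR adjusted p = 0.00128). *Penk*, the enkephalin precursor, stood at 1218, 652 and 294 CPM before and at 20.5, 11.3, 13.1, 7.94, 7.68 and 53.3 after (log2 -5.16). *Timp3*, an inhibitor of metalloproteinases held in the matrix, fell from 950 ± 533 to 57.0 ± 33.5 CPM, and *Angptl7* by 4.88 and the leptin receptor gene *Lepr* by 4.21 on the log2 scale. Among 9 proteases and inhibitors *Adamts5* also fell and *Mmp14* alone rose, and of 9 TGF-β and BMP genes *Bmp4* (-2.63) and *Ltbp4* fell. Of 9 glycolysis and hypoxia genes *Gapdh* (log2 1.15) and *Pgam1* rose, of 12 immediate early and heat shock genes *Ier2* fell (-1.61), of 10 sublining genes the chemokine *Cxcl12* fell (-1.24), and of 15 secretory pathway genes *Kdelr3* rose and *Creb3l1* fell. Over all genes 3.67% were higher and 6.86% lower, so 1 gene of such a list in a direction is near the background. With the replicate number as a block, *Lepr*, *Bmp4* and *Cxcl12* also lost their calls. Of 4 lining genes 0 passed by edgeR, with 1 at a p under 0.05 before adjustment and 1 by DESeq2, and of 6 collagen receptors and mechanosensing genes 0 passed by edgeR, with 2 and 1. *Mylk*, the myosin light chain kinase, is a smooth muscle gene, and fell by 4.27. Without the *Myh11* cells of the Tom+ steady state it no longer passed the filter on low counts.

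**Figure D5:**
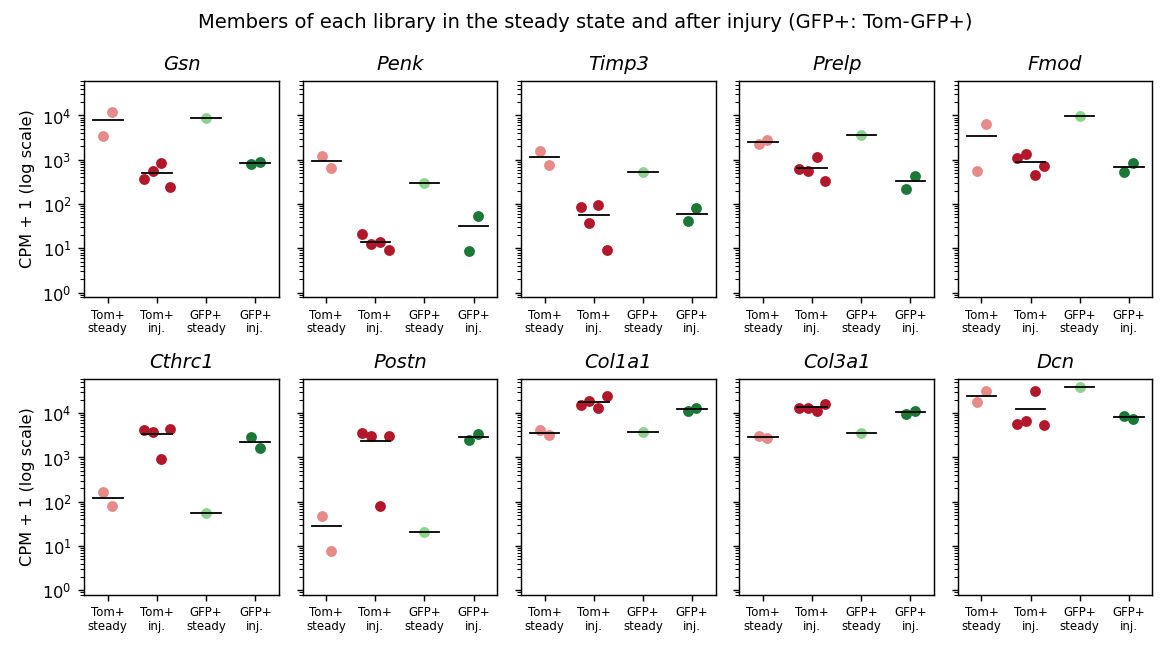
CPM + 1 on a log scale (y axis) of single genes in tenocyte-lineage cells of each library, by lineage and state (x axis; GFP+ stands for Tom-GFP+), 1 point per library. *Cthrc1*, *Col1a1* and *Postn* are higher and *Gsn*, *Penk* and *Prelp* lower in all 6 injured libraries than in the 3 steady-state ones.

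The response was set beside that of Tom+ *Thy1*+*Cd34*+ fibroblasts, with a test of the difference itself on 5 Tom+ libraries, 1 of them in the steady state. Of 11317 genes, 13 (0.115%) had a higher and 42 (0.371%) a lower injury effect in members. *Postn*, a wound gene, was among those with a higher effect. It stood at 6.52 CPM in steady-state members of Tom+ replicate 2 and at 270 CPM in fibroblasts of that library, and reached 3488, 2986, 78.7 and 3096 CPM against 1701, 1476, 967 and 1320 CPM after injury, a difference in log2 fold change of 5.92 ± 0.79. The steady-state member value is 1 UMI, and the call was lost with DESeq2, which called 0 genes with a higher effect in members and 16 with a lower one. Genes with a lower effect included *Tagln* and *Acta2*, which the *Myh11* cell of that 1 steady-state library carries, and without the *Myh11* cells the count of calls was 29 in place of 55. *Col1a1* and *Cthrc1* rose in fibroblasts as well, from 1711 and 26.9 CPM in the Tom+ steady-state library to 6543 to 9250 and 1463 to 4217 CPM in injured ones, and the difference between the responses did not pass for either (*Col1a1* log2 0.35 ± 0.35, edgeR adjusted p = 1; *Cthrc1* -1.23 ± 0.54, adjusted p = 0.901).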

How the data were processed

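The deposited values were raw UMI counts per gene and cell barcode, which the authors made with Cell Ranger on GRCm38 and deposited for barcodes already called as cells. The version, 3.0.2, is stated only in files with the newer gene list, and for the 3 steady-state libraries and Tom+ injured replicate 1, with the older list, it is not given in the sources used here. Of 5161 barcodes, 4788 with 500 genes or more, 1000 UMIs or more and a mitochondrial share of 10% or less were kept. No doublet caller was run, and cells in the highest 5% of UMIs were left out as an alternative. Counts were summed per library and class, for libraries with at least 5 such cells (all 9 libraries in the injury effect over both lineages), and tested with edgeR 4.0.16 in R 4.3.3 (quasi-likelihood, TMM, filter on low counts, Benjamini-Hochberg over all genes tested), with DESeq2 1.42.0 as an alternative. CPM divides by all UMIs of the class in the library. Total counts of called genes kept the genes of the rule, whereas the lists and the naming of genes per test left them out. Member UMIs per library ranged from 41864 to 635123, and 3 UMIs, the floor used for a count of 0, were 71.7 CPM in the smallest. Shares were compared with exact permutation tests. Each library came from 1 mouse by the study's methods. Named genes were the list genes highest in members and, per test, up to 10 called genes in each direction with the largest change, at least 50 CPM in the higher group and the same direction in every pair or no overlap. *Scx*, *Itga10*, *Wif1*, *Tgfb3*, *Clec11a*, *Angptl7* and other single genes outside this rule were chosen after their values were seen, as were the injury effect over both lineages, the runs without a minimum of cells and those without *Myh11* cells. Members and lists were chosen with earlier results of these data known. Steps were tested on simulated data. Positions are from GENCODE vM21 on GRCm38.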

Additional observations from a re-analysis of the deposited data

Results flagged for a closer look

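Among 35 values tested for a library far from the others of its group, of which chance singles out about 1 in 20, 4 stood apart, all in Tom+ injured replicate 3. Its 7 members held 13.1 CPM of *Angptl7* (median of the other Tom+ injured libraries 0), which is 1 UMI, 78.7 CPM of *Postn* (3096), 31697 CPM of *Dcn* (5789) and 6098 CPM of *Comp* (1319). For *Postn*, *Dcn* and *Comp* the values lay toward those of the steady state. Without this library, 80 genes in place of 7 were called for injury in Tom+ members. The part of the number of cells in these values was not tested.

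The test of whether the injury effect differed between Tom+ members and Tom+ *Thy1*+*Cd34*+ fibroblasts singled out 20 genes by the naming rule. The median difference over all genes was 0.19 on the log2 scale, and 0.06 with size factors by relative log expression. Higher effects in members were found for *Epyc* (13.02), *Ifi27l2a* (11.71), *Zfp385a* (10.07), *Pigx* (9.76), *Postn* (5.92), *Fbln5* (3.61), *Smoc2* (3.37), *Ebf1* (2.48), *Sfrp2* (1.93) and *Ogn* (1.68). Lower effects were found for *Tagln* (-9.88), *Msmp* (-9.12), *Acta2* (-8.997), *Chil1* (-6.70), *Spp1* (-6.09), *Tpm2* (-5.57), *Myl9* (-5.50), *Hbegf* (-4.35), *Sparcl1* (-3.90) and *Rrad* (-3.81). The steady state of this test is 1 library. *Epyc*, *Ifi27l2a*, *Zfp385a* and *Pigx* had 0 UMIs in its members, so their values depend on the prior count and are no bound, whereas *Tagln* had 207 UMIs there, in the *Myh11* cell. Without the *Myh11* cells *Zfp385a*, *Pigx*, *Sfrp2*, *Ogn*, *Tagln*, *Acta2*, *Tpm2*, *Myl9* and *Sparcl1* were not called, and with DESeq2 none of the higher effects was.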

How the results depend on the processing

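Steady-state members came from 3 libraries with 37 cells, so a gene under 3 UMIs there could not be told from absence, and depth differed between the states. In Tom+ members the 7 calls for injury, all lower, became 28 with DESeq2, 196 with no filter on low counts, 17 without cells in the highest 5% of UMIs, 29 with *Tnmd* required, 1 after thinning, 0 with the gene list layout as a term, 51 with no minimum of cells, 4 without *Myh11* cells, and 4 (without Tom+ injured replicate 4) to 80 (without replicate 3; 27 without replicate 1) when 1 library was left out. In Tom-GFP+ members 0 became 26 with DESeq2, 259 with no filter, 12 with *Tnmd* required, and 0 to 30 with 1 library left out (30 without Tom+ injured replicate 1 or 3). Over both lineages 307 became 709 with no filter, 199 after thinning, 2 with the layout term, and 46 to 441 with 1 library left out. Between the injured lineages 0 became 1 with DESeq2, 94 with no filter, 210 with a minimum of 20 cells, 1 with no minimum, and 0 to 5 with 1 library left out. The interaction went from 0 to 1 with DESeq2 and 13 with no filter. Against fibroblasts 579 became 103, and against other stromal cells 768 became 200, with a minimum of 20 cells, where fewer libraries enter. With 1 library left out they ran from 439 to 581 and from 601 to 781. *Tnmd*-positive against negative members went from 8 to 2 with DESeq2, 76 with no filter, 33 with stricter cells (at least 1000 genes, at most 5% mitochondrial UMIs) and 25 without the highest 5% of UMIs. The difference in response went from 55 to 16 with DESeq2, all of them lower, 24 after thinning, 20 with the layout term, 83 with no minimum, 29 without *Myh11* cells, and 38 to 55 with 1 library left out. Except where fewer cells, libraries or genes enter by construction, the cause was not tested.

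The difference in share turned from 0.383 to -0.571 points after thinning and -0.145 with all 3 markers required, and ran from -0.580 to 1.35 with 1 library left out (negative without Tom+ steady-state replicate 1 and, at -0.226, without Tom+ injured replicate 1). For single genes, 2437 of 2859 values over 167 results kept direction and side of the threshold, 380 lost the call, 34 gained it and 8 reversed. These were *Thbs4* for injury over both lineages (0.0157 without the highest 5% of UMIs) and, for the difference in response, *Tagln* 4.19, *Tpm2* 6.21, *Myl9* 0.11 and *Sparcl1* 6.40 after thinning and *Tagln* 4.23, *Tpm2* 7.40 and *Sparcl1* 8.18 without *Myh11* cells.

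Groups share replicate numbers. The study describes the Tom-GFP+ mice as matched to Tom+ ones, but neither it nor the labels tie a number to a mouse. Deviations of same-numbered libraries correlated at 0.212 (Tom+ and Tom-GFP+ injured) and 0.0357 (Tom+ injured and steady state) over 3726 genes. With 2 pairs in each case this does not settle whether the numbers pair the libraries, and they were not used as pairs. With the replicate block the calls were 53 for injury in Tom+ (19 higher, 34 lower), 96 over both lineages and 2 between the injured lineages. Not run, because a group would be empty or no residual degree of freedom is left, were a minimum of 20 cells for injury, the interaction, the response and the *Tnmd* split, leaving out the only steady-state library of a contrast, the block for Tom-GFP+ injury and the response, and thinning and leaving out a library for the *Tnmd* split.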
